A study of Mus musculus with 10 samples.

Results

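The genes described here are 38 imprinted genes, whose symbols were fixed as a list, out of 23420 gene rows in each file; all 38 symbols were present. They were measured by polyA RNA sequencing in 10 libraries of mouse spermatogenic cells at postnatal day 18. Of these, 5 carried the label Ino80WT and 5 the label Ino80cKO, the latter with a testis-specific deletion of the chromatin remodeller Ino80 driven by Stra8-Cre. Both labels share a mixed strain background. Cells were obtained from enzymatically digested seminiferous tubules passed through a filter, with no sort for a cell type described. Stra8-Cre acts in germ cells from the spermatogonial stage, so somatic cells in the same suspension are not its target. The labels do not state whether the Ino80WT mice carry floxed alleles or Cre, whether a library is 1 animal or a pool, or which part of Ino80 is deleted. P-values therefore measure the spread between libraries, which may be partly technical.

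An imprinted gene is transcribed mainly from the allele inherited from one parent, because a control region near it is methylated in one parental germ line and not in the other. In the male germ line the old marks are erased in primordial germ cells. A few paternal marks, those of the Igf2-H19, Dlk1-Dio3 and Rasgrf1 regions among them, are set again before birth. Most imprints of the mouse are set in the oocyte instead, so male germ cells carry those control regions unmethylated. Many imprinted genes act on fetal growth, in placenta or in brain, and several are also transcribed in Sertoli and Leydig cells of the testis. The list was split by the allele that is active in the somatic tissues where imprinting has been described, which gave 15 maternally and 23 paternally expressed members. For some of them, such as Ube3a, Gnas, Commd1 and Ascl2, that holds in a few tissues only. Counts per gene do not separate alleles, so which allele was read was not measured.

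Levels are in CPM, counts scaled to the TMM-adjusted library size, and changes are log2 fold changes of Ino80cKO over Ino80WT with their SE. A gene was called higher or lower at a Benjamini-Hochberg adjusted p below 0.05 in edgeR's quasi-likelihood test over all 15265 genes that passed the count filter, with 5 libraries per group. Gene counts per library ranged from 16750609 to 23700094, so that 3 counts, the limit that a count of 0 allows, were 0.127 to 0.179 CPM before TMM scaling, for counting error only. The count of Ino80 was 94.96 ± 12.6 CPM (SD, n = 5) in Ino80WT and 96.1 ± 1.37 CPM in Ino80cKO (adjusted p = 0.889), and reads from undeleted exons would still count, so it does not check the labels. Markers of pachytene and later spermatocytes were present and summed to 5333 to 9280 CPM in Ino80WT and 1921 to 3300 CPM in Ino80cKO. All 20 of these germ cell markers were lower in Ino80cKO, beside 27.6% of all tested genes. Sertoli markers summed to 3374 to 5351 and 4982 to 6824 CPM, so the suspensions held somatic cells too.

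Imprinted genes changed in both directions. Of 35 tested members, 15 were higher in Ino80cKO, 5 were lower and 15 did not pass. Over all tested genes 45.9% were called, 18.3% higher and 27.6% lower, while among these members the shares were 57.1%, 42.9% and 14.3%. Their median log2 fold change was 0.25, beside 0.02 over all tested genes. Under library totals as the scaling, the median of all genes moved to 0.19 and that of the members to 0.42. There 17 of the 35 tested members were higher and 5 lower, beside 5484 and 2937 of 15265 genes. The reported fit called 2793 genes higher and 4220 lower. Libraries of the 2 labels did not overlap in CPM for 10 of the 35 members, 7 with Ino80cKO above and 3 below. Over all tested genes, 32% did not overlap, 9.96% with Ino80cKO above and 22% below. Only the members' pooled share of 28.6% was near the background. By direction, the members' share above was larger and their share below smaller than over all tested genes. The 3 members that did not pass the count filter were Snrpn, Magel2 and Dio3.

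The rises stood in both parental classes. All but 1 of the falls stood among maternally expressed genes, whose share called lower was near that of all tested genes. Among 15 maternally expressed members 5 rose (Zim1, H19, Igf2r, Gnas and Grb10) and 4 fell (Asb4, Slc22a18, Mirg and Commd1), with a median of -0.03 that became 0.14 under library totals and likewise without Ino80WT 1. Among 20 tested paternally expressed members 10 rose (Igf2, Peg3, Dlk1, Plagl1, Peg10, Impact, Mest, Mkrn3, Ndn and Zrsr1) and 1, Nespas, fell, with a median of 0.31. Maternal members were thus 33.3% higher and 26.7% lower and paternal members 50% and 5%, beside 18.3% and 27.6% over all tested genes. Whether the classes differ was not tested. Of the 8 tested members listed with a control region methylated on the paternal allele (Zdbf2 among them), 3 rose (37.5%) and 1 fell (12.5%). Of the 27 others 12 rose (44.4%) and 4 fell (14.8%). These shares were near each other, above the 18.3% higher and below the 27.6% lower of all tested genes. In bulk samples, fewer cells of a type and less RNA per cell cannot be told apart.

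**Figure D1:**
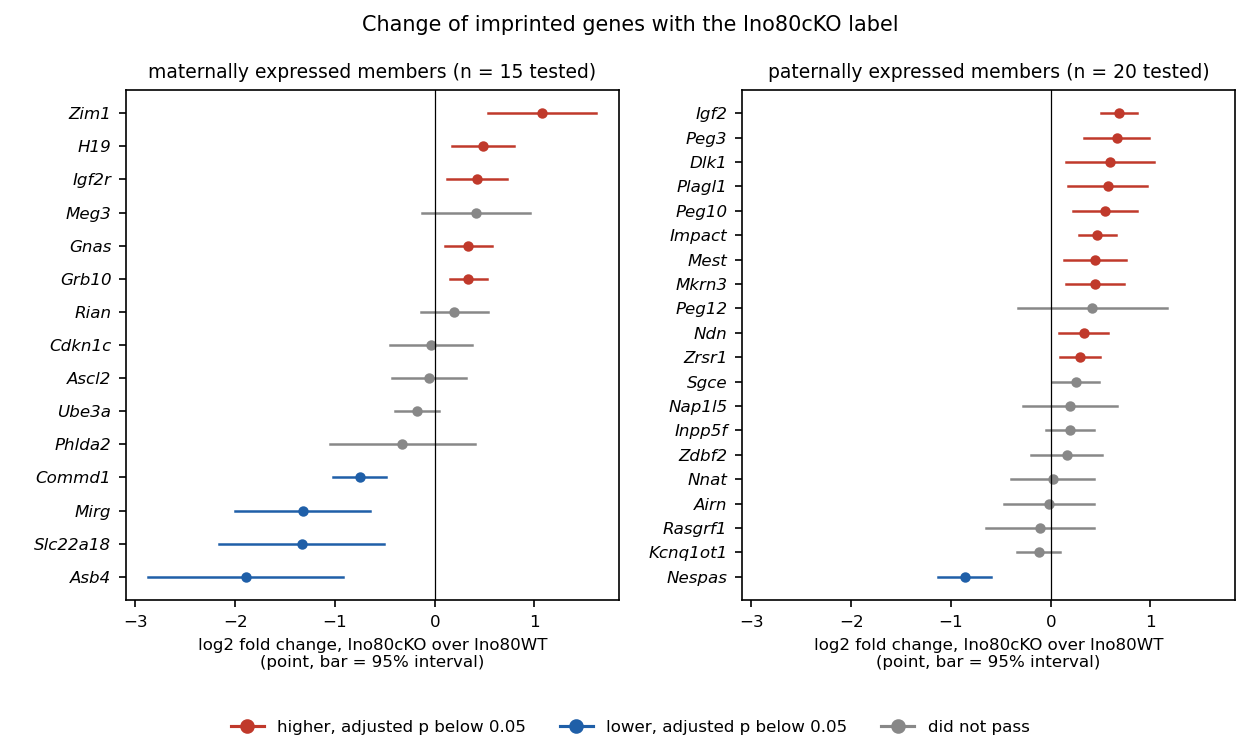
Log2 fold change of Ino80cKO over Ino80WT (x axis) for the 15 maternally and 20 paternally expressed members tested (y axis), as points with 95% intervals, red where higher, blue where lower and grey where the test was not passed. Asb4 (-1.89) and Zim1 (1.08) lie at the ends of the left panel, and Nespas (-0.86) stands alone below 0 among the called genes of the right panel.

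Promoter sequences are shown for members whose neighbours moved the other way or together with them. RefSeq promoter windows (GRCm38.p6, 250 bases before to 50 after the start) were found for 32 of the 38 members, with 48 windows in all. H19, Cdkn1c, Peg10, Sgce, Nespas and Impact had no entry. Sequences run 5′ to 3′ with each CG pair, the site of DNA methylation, in capitals. Zrsr1 lies on the plus strand inside the span of Commd1, which runs on the minus strand, and one of the Commd1 starts falls within the Zrsr1 gene.
Zrsr1, higher in Ino80cKO (chr11:22971755-22972054, plus strand): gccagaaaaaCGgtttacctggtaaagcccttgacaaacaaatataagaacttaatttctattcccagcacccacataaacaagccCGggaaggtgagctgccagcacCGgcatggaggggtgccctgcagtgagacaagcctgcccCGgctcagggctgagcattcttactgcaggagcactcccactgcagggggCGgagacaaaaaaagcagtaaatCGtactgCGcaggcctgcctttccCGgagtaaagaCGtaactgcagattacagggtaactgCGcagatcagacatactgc
Commd1 start within Zrsr1, gene lower in Ino80cKO (chr11:22972817-22973116, minus strand): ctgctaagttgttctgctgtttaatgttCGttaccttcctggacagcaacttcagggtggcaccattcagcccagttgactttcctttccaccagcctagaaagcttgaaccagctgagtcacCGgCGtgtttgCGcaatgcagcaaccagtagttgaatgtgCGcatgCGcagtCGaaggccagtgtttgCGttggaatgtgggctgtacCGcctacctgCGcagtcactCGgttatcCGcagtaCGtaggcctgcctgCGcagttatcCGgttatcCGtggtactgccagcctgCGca
Commd1 upstream start (chr11:22982235-22982534, minus strand): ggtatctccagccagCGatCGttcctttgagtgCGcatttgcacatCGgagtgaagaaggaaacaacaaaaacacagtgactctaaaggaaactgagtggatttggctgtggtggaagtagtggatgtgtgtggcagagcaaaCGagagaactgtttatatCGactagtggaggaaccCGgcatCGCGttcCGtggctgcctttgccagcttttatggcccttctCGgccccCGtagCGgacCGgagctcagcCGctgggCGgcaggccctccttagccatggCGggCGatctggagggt
The Commd1 windows held 17 and 18 CG pairs and that of Zrsr1 held 10.

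Asb4 and Slc22a18 are shown because they fell the most of the maternally expressed genes with an entry, and Peg3 and Zim1 because these neighbours rose together.
Asb4, upstream of 2 starts (chr6:5383136-5383435, plus strand): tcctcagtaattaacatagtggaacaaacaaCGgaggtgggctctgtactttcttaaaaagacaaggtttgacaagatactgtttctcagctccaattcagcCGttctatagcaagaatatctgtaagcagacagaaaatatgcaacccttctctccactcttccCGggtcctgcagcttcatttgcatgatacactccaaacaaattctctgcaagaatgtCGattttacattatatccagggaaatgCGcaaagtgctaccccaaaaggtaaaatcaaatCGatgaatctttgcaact
Slc22a18 (chr7:143473539-143473838, plus strand): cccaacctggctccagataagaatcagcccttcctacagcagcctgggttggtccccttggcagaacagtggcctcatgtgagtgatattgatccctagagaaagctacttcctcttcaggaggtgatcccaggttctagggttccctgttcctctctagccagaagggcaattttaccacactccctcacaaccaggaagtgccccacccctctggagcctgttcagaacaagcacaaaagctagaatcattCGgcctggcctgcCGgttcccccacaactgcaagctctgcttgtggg
Peg3 (chr7:6730370-6730669, minus strand): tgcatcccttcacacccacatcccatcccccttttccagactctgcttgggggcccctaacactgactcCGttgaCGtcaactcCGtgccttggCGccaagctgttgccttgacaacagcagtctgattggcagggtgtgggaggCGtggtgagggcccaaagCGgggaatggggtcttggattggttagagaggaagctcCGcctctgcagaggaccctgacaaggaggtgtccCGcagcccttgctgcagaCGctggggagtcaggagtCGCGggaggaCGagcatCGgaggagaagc
Zim1 (chr7:6696383-6696682, minus strand): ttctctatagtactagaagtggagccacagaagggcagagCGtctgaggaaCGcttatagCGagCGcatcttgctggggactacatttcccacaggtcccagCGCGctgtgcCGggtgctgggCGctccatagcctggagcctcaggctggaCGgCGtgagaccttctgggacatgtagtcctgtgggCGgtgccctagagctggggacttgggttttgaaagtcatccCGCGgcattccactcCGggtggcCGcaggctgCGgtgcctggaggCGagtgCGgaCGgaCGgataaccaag
Slc22a18 had 2 CG pairs and this window of Asb4 had 6, while Peg3 had 13 and Zim1 20. The other window of Asb4 had 8. Mirg, which fell nearly as much as Slc22a18 (log2 -1.32 against -1.33), had 10. All promoters of the table had a median of 7 CG pairs per window and the 48 windows of members 14.5. The median was 16 for members that rose (21 windows, from 2 to 45) and 15 for those that did not pass the test (15 windows, from 0 to 38). For members that fell it was 9, from only 6 windows of 4 genes that ranged from 2 to 18. The hexamer TGCCGC, bound by the imprint-protecting factor ZFP57 when methylated, was searched on both strands and stood in 12 of the 48 windows (25%), against 11.6% of 32851 windows of all genes. The motif GCCATNTT of YY1, a zinc-finger protein that can bind the INO80 complex, stood in 2 of 48 (4.17% against 6.05%), in Mkrn3 and Ube3a. The cAMP response element TGACGTCA stood in 3 of 48 (6.25% against 1.79%), in Peg3, Meg3 and Zdbf2. TGCCGC and TGACGTCA each hold a CG pair, and windows of members held more CG pairs than those of all genes. The part of CG content in these shares was not tested. Windows of 1 gene can overlap, as at Mest, these counts have no test, and a match is a description, not a binding site.

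Igf2 and H19, neighbours that share enhancers and a control region methylated on the paternal allele, both rose. Positions are those of RefSeq GRCm38.p6. Igf2 (chr7:142650768-142666816) encodes a fetal growth factor. It was at 27.1, 30.3, 26.8, 25.3 and 24.7 CPM in Ino80WT 1 to 5 and at 44.1, 46.2, 37.0, 44.4 and 43.7 CPM in Ino80cKO 1 to 5. The groups did not overlap, and the lowest Ino80cKO library, replicate 3, stood apart from the other Ino80cKO libraries. The change was 1.61-fold (log2 0.68 ± 0.08, adjusted p = 9.01e-05), with an exact two-sided permutation p of 0.00794, the smallest that 5 against 5 can give. Any gene whose groups do not overlap gets this p, and 32% of all tested genes did not overlap. H19 (chr7:142575530-142578146), a noncoding RNA of embryonic tissues, was at 17.3, 13.5, 11.7, 18.9 and 12.6 CPM in Ino80WT and at 23.1, 23.3, 20.9, 18.4 and 17.5 CPM in Ino80cKO. Its groups overlapped at Ino80WT 4, and it rose 1.40-fold (log2 0.48 ± 0.14, adjusted p = 0.0158). In GENCODE, 62.8% of the exonic bases of Igf2 are shared on the same strand with the model Gm49394, so the count may hold reads of another transcript.

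Igf2r, the receptor that takes up IGF2 for degradation, rose 1.34-fold from 117 ± 26.3 to 157 ± 8.94 CPM (adjusted p = 0.025), with the 5 Ino80cKO libraries at 151 to 173 CPM and Ino80WT 1 lowest at 74.3 CPM. Airn, the noncoding RNA that silences Igf2r in cis on the paternal allele, had 11 to 21 counts per library and a log2 fold change of -0.02 ± 0.21. Grb10 (chr11:11930499-12037428), an adaptor that dampens insulin and growth factor signalling, was at 60.2, 77.0, 74.8, 70.5 and 67.4 CPM in Ino80WT and at 81.7, 95.7, 96.1, 79.2 and 88.6 CPM in Ino80cKO. Every Ino80cKO library lay above every Ino80WT library, a rise of 1.26-fold (log2 0.33 ± 0.09, adjusted p = 0.00729). Plagl1, a zinc-finger factor that activates other imprinted genes, rose 1.48-fold from 10.1 ± 1.98 to 14.97 ± 3.99 CPM (adjusted p = 0.0232). Its libraries overlapped.

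Some of these calls were lost with 1 library left out, with the direction kept. Plagl1 did not pass without Ino80WT 3, Ino80WT 5, Ino80cKO 2 or Ino80cKO 3, and over all settings its log2 fold change was at least 0.39 and its adjusted p up to 0.0883. Igf2r did not pass without Ino80cKO 4 (adjusted p = 0.0566), and over all settings its log2 fold change was at least 0.32. Igf2, H19 and Grb10 kept theirs in all 18 alternative settings.

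Peg3 and Zim1 rose together. Peg3 (chr7:6703892-6730462) encodes a large zinc-finger protein of growth and maternal care, and Zim1 (chr7:6674444-6696540), its neighbour, is another zinc-finger gene. Peg3 was at 48.1, 88.4, 87.0, 79.9 and 85.1 CPM in Ino80WT and at 106, 133, 140, 111 and 124 CPM in Ino80cKO. The groups did not overlap, with Ino80WT 1 far below the other Ino80WT libraries, and the rise was 1.58-fold (log2 0.66 ± 0.15, adjusted p = 0.00379). Zim1 was low, at 0.818, 1.06, 0.944, 1.703 and 1.19 CPM in Ino80WT and 2.90, 2.56, 3.26, 1.77 and 1.68 CPM in Ino80cKO, with 112 and 268 counts summed over the groups. Only Ino80WT 4 reached into the range of Ino80cKO, and the rise was 2.11-fold (log2 1.08 ± 0.25, adjusted p = 0.00438), the largest rise among the members. Zim3, an imprinted zinc-finger gene of the same cluster that is not a member, fell from 5.38 ± 0.89 to 3.37 ± 0.42 CPM (log2 -0.68 ± 0.15, adjusted p = 0.00285).

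Peg10 had the highest level per exon length of all members, 36.7 ± 5.67 CPM per kb of GENCODE exons in Ino80WT. Gnas followed at 31.7 ± 3.77, a gap smaller than the SD of Peg10. By CPM alone Gnas was higher, 354 against 245 in Ino80WT. Exon lengths pool all transcripts of a gene, 11186 bases for Gnas with its 4 promoter windows, so the order by length is uncertain. Peg10 (chr6:4747306-4760517) is derived from a retrotransposon and is needed for placenta. It was at 204, 274, 203, 267 and 276 CPM in Ino80WT and at 335, 378, 461, 352 and 256 CPM in Ino80cKO. All Ino80cKO libraries but replicate 5 lay above Ino80WT, and the gene rose 1.45-fold (log2 0.54 ± 0.15, adjusted p = 0.0105). Sgce, a sarcoglycan that starts next to Peg10 on the other strand, had a log2 fold change of 0.25 ± 0.11 and did not pass (adjusted p = 0.0817), although it passed in 5 of the 18 alternative settings, library totals among them.

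Asb4 (chr6:5383386-5433022), at the far side of this cluster, fell the most of all members. It encodes a subunit of a ubiquitin ligase. It was at 6.36, 9.82, 23.2, 5.24 and 11.0 CPM in Ino80WT and at 1.21, 2.03, 2.62, 5.40 and 3.85 CPM in Ino80cKO. Ino80WT 3 was by far the highest and Ino80cKO 4 reached just above Ino80WT 4. The fall was 3.72-fold (log2 -1.89 ± 0.45, adjusted p = 0.00508), and over all settings the log2 fold change ran from -2.21 to -1.37. The ratio of Asb4 to Peg10 within a library, which no scaling affects, was 5.23-fold lower in Ino80cKO, a description with no test, as this and 3 other neighbour pairs were chosen after their values were seen.

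**Figure D2:**
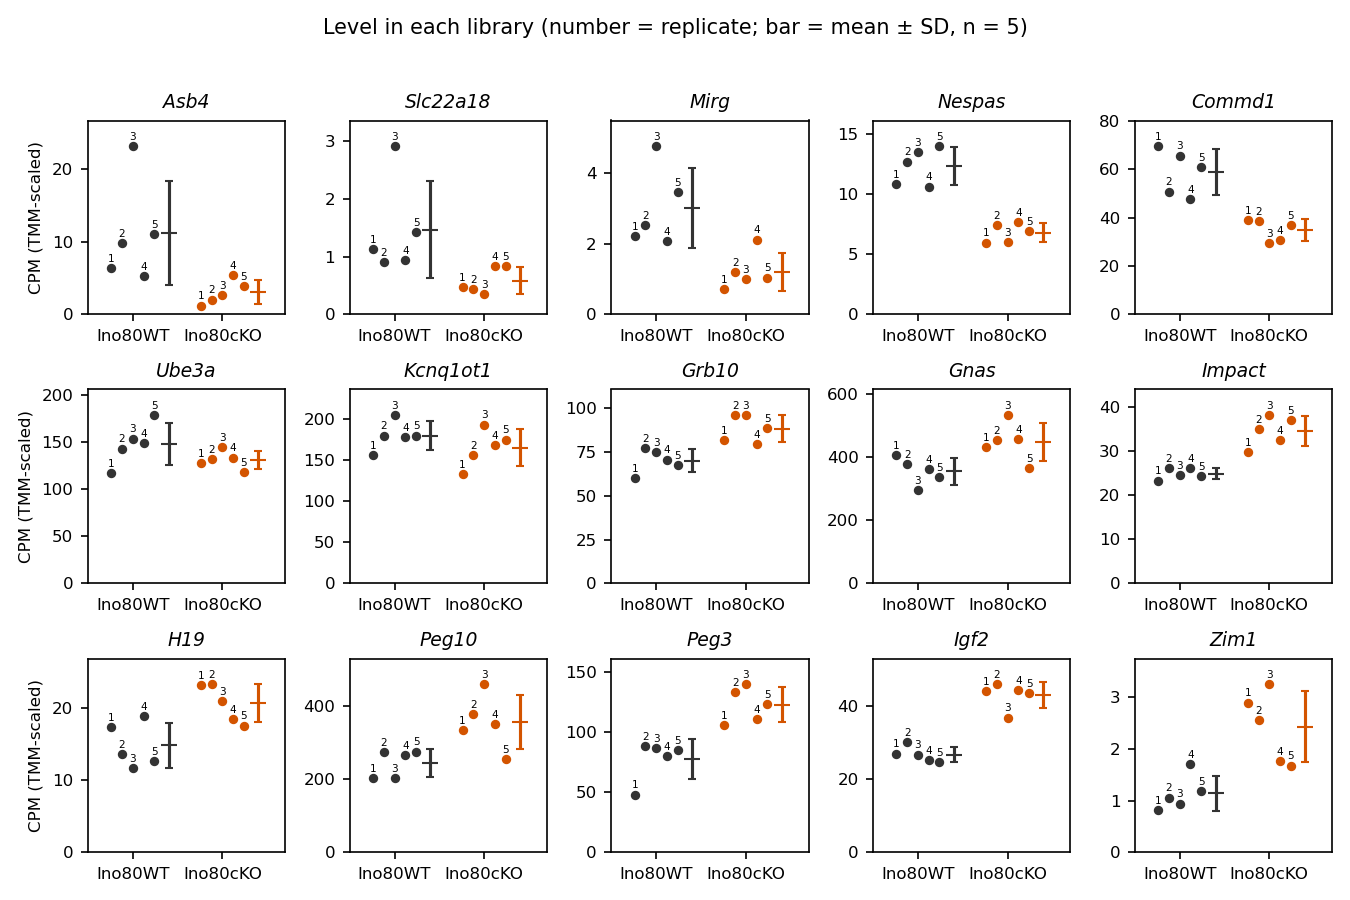
CPM (y axis) of 15 members in each library, with replicate numbers beside the points and the mean ± SD of 5 libraries to the right of each group. Asb4, Slc22a18 and Mirg are highest in Ino80WT 3, and the groups do not overlap for Igf2, Peg3, Grb10, Impact, Commd1, Nespas and Slc22a18.

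In the Kcnq1 region 1 of 5 members passed the test, Slc22a18 (chr7:143473726-143499334). It encodes a membrane transporter. It was at 1.13, 0.907, 2.93, 0.941 and 1.43 CPM in Ino80WT and at 0.470, 0.441, 0.346, 0.835 and 0.840 CPM in Ino80cKO, with 143 and 63 counts summed over the groups. Ino80WT 3 was again highest and the groups did not overlap. The fall was 2.52-fold (log2 -1.33 ± 0.38, adjusted p = 0.0129), and without Ino80WT 3 and Ino80cKO 3 together the call was lost (adjusted p = 0.0647). Kcnq1ot1 (chr7:143213111-143296547), the noncoding RNA that silences the region in cis on the paternal allele, was at 156, 180, 205, 178 and 180 CPM in Ino80WT and 133, 156, 193, 168 and 175 CPM in Ino80cKO. Its groups overlapped over most of their range, and the 95% interval of its fold was 0.789 to 1.07.

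The other genes of that region did not pass the test. Cdkn1c, the cell cycle inhibitor p57, was at 7.204 ± 1.84 and 7.01 ± 1.55 CPM. Ascl2, a trophoblast transcription factor, was at 3.42 ± 0.62 and 3.31 ± 0.60 CPM, and Phlda2, which restrains placental growth, had 6 to 25 counts per library.

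The Dlk1-Dio3 region held 1 rise, of Dlk1, and 1 fall, of Mirg. Dlk1, a transmembrane ligand related to Notch ligands, rose 1.51-fold from 8.86 ± 2.01 to 13.4 ± 3.79 CPM (adjusted p = 0.0306), with Ino80cKO 1 at 19.1 CPM and Ino80cKO 3 at 9.09 CPM, inside the range of Ino80WT. The call was lost without Ino80WT 2, 3 or 5 or Ino80cKO 1 or 5 (adjusted p up to 0.0836). The noncoding RNAs Meg3, Rian and Mirg follow one another on the plus strand. Meg3 was at 9.82, 10.7, 3.96, 11.7 and 8.10 CPM in Ino80WT and 16.0, 12.3, 9.73, 11.98 and 9.09 CPM in Ino80cKO, which did not pass (log2 0.42 ± 0.25, adjusted p = 0.185). Rian, a host of small nucleolar RNAs, did not pass either (log2 0.20 ± 0.15, adjusted p = 0.309). Both were lowest in Ino80WT 3.

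Mirg (chr12:109734981-109749458), which hosts a cluster of microRNAs, went the other way. It was at 2.20, 2.52, 4.77, 2.06 and 3.46 CPM in Ino80WT and at 0.705, 1.19, 0.988, 2.11 and 1.04 CPM in Ino80cKO. It was highest in Ino80WT 3, and only Ino80cKO 4 overlapped with Ino80WT. The fall was 2.50-fold (log2 -1.32 ± 0.31, adjusted p = 0.00457). The ratio of Mirg to Meg3 within a library was 3.53-fold lower in Ino80cKO, likewise not tested. Dio3, the deiodinase at the end of the region, had 2 to 13 counts per library.

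Zrsr1 and Commd1, which overlap on opposite strands, moved apart. Commd1 (chr11:22899728-22984539), a regulator of copper transport and NF-kappaB, was at 69.7, 50.8, 65.6, 47.6 and 60.8 CPM in Ino80WT and at 39.0, 38.6, 29.6, 30.6 and 36.8 CPM in Ino80cKO. The groups did not overlap, and the fall was 1.69-fold (log2 -0.75 ± 0.12, adjusted p = 0.000411). Zrsr1 (chr11:22972005-22976496), a retrogene for a protein of the minor spliceosome, rose 1.23-fold from 26.5 ± 2.18 to 32.6 ± 3.74 CPM (adjusted p = 0.0217), with Ino80cKO at 30.0 to 39.0 CPM and Ino80WT at 22.9 to 28.7 CPM. This call was lost without Ino80WT 2 (adjusted p = 0.0541). The ratio of Commd1 to Zrsr1 was 2.06-fold lower in Ino80cKO, likewise not tested. GENCODE places 9.17% of the exonic bases of Zrsr1 antisense to Commd1 exons. Zrsr1 also resembles its X-linked relative Zrsr2, so its count is uncertain.

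Gnas and its antisense RNA Nespas moved apart as well. Gnas (chr2:174284320-174346744) encodes the stimulatory G protein alpha subunit, which links hormone receptors to cAMP. It was at 406, 376, 294, 361 and 336 CPM in Ino80WT and at 432, 453, 533, 457 and 364 CPM in Ino80cKO. The groups overlapped at Ino80WT 1 and 2 and Ino80cKO 5, and the rise was 1.26-fold (log2 0.34 ± 0.11, adjusted p = 0.0234). It did not pass without Ino80WT 5 or without Ino80WT 3 and Ino80cKO 3 together (adjusted p up to 0.0726). RefSeq lists 4 promoter windows for Gnas, and its count does not separate their transcripts, so the maternal class may not hold for each of them.

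Nespas (chr2:174281237-174295436), a paternally expressed noncoding RNA that silences the Nesp transcript of Gnas, was at 10.8, 12.7, 13.5, 10.6 and 14 CPM in Ino80WT and at 5.95, 7.41, 5.98, 7.66 and 6.92 CPM in Ino80cKO. The groups stood well apart. The fall was 1.82-fold (log2 -0.86 ± 0.12, adjusted p = 0.000182), and the ratio of Nespas to Gnas was 2.29-fold lower, likewise not tested. In GENCODE, 38.5% of the exonic bases of Nespas are antisense to other genes, Gnas among them. The libraries were made with a stranded kit, but no source used here gives the strand setting of the counting, so reads of these partners may not have been separated.

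**Figure D3:**
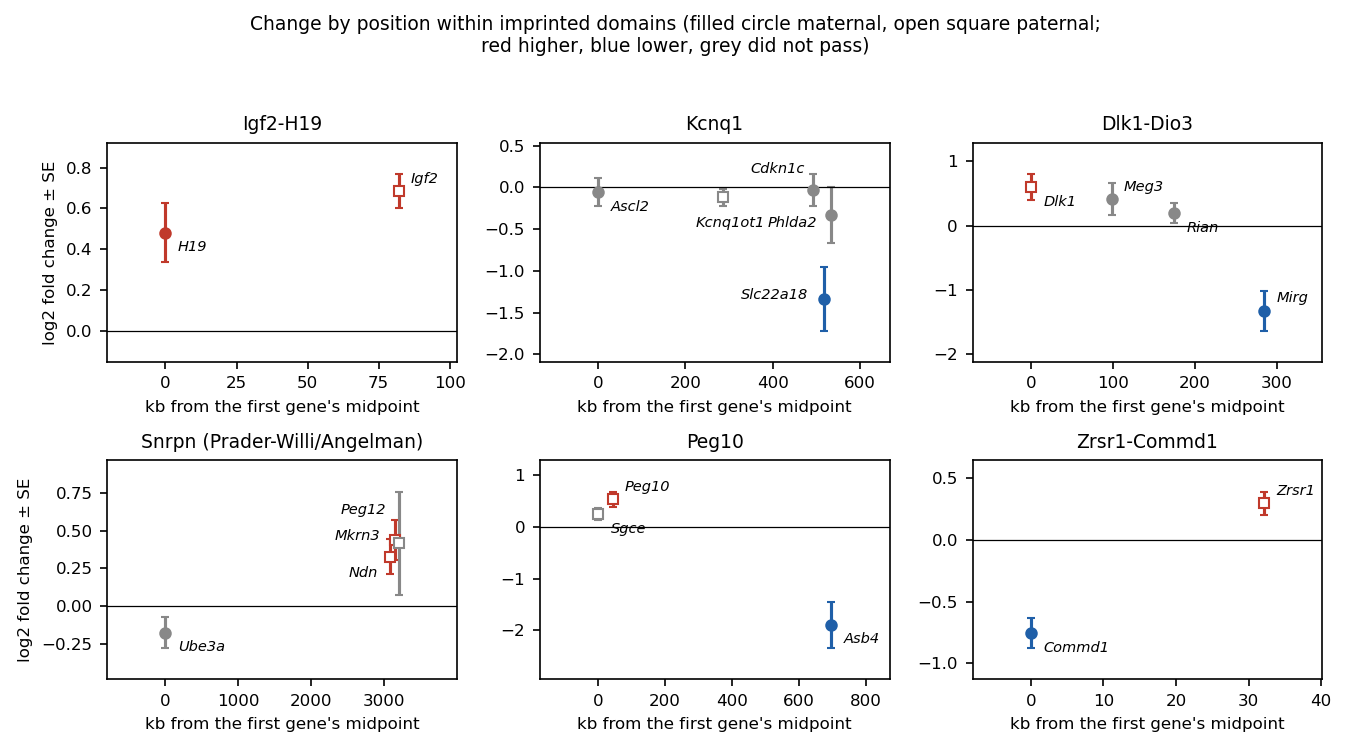
Log2 fold change ± SE (y axis) of tested members against the distance in kb of each gene's midpoint from that of the first tested member (x axis) in 6 imprinted regions, with filled circles for maternally and open squares for paternally expressed genes. Both genes of the Igf2-H19 region are above 0, while the Dlk1-Dio3, Peg10 and Zrsr1-Commd1 regions hold called genes on both sides of 0.

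In the region of Prader-Willi and Angelman syndromes, Ndn and Mkrn3 rose slightly. Ndn, a MAGE family protein of neurons, rose 1.26-fold from 16.1 ± 2.62 to 20.2 ± 1.63 CPM (adjusted p = 0.0329), a call lost without Ino80WT 3, 4 or 5 or Ino80cKO 1 or 2 (up to 0.0862). Mkrn3, a RING finger protein that delays puberty, rose 1.36-fold, from 4.29 to 4.93 CPM across Ino80WT libraries to 4.99 to 7.61 CPM across Ino80cKO (adjusted p = 0.0178). Peg12 had 9 to 39 counts and Magel2 0 to 6 counts per library. Ube3a, a ubiquitin ligase silenced on the paternal allele in neurons, was at 117, 143, 154, 149 and 179 CPM in Ino80WT and 127, 132, 145, 134 and 118 CPM in Ino80cKO. Its groups overlapped, and the 95% interval of its fold was 0.760 to 1.03. It passed, as lower, without Ino80WT 1 and without the 2 Ino80WT libraries richest in Rn45s (adjusted p down to 0.0345).

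Snrpn was listed at 0 in all 10 libraries. Snurf, which shares its first exons and is not a member, had 1 count in all. In GENCODE, 27.3% of the exonic bases of Snrpn are shared on the same strand with Snurf and another model, and HTSeq in its default mode leaves out reads that fall in 2 genes. Reads set aside as ambiguous made up 0.295% to 0.353% of each library. Their part in the count of 0 was not tested, and no level is given for Snrpn.

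Of the 9 members listed as the only gene of their region, 4 rose: Grb10 and Plagl1, given above, Impact and Mest. That share was near the 42.9% called higher among all tested members, beside 18.3% over all tested genes. Impact, which restrains the eIF2 kinase GCN2, was at 23.4, 26.2, 24.6, 26.3 and 24.3 CPM in Ino80WT and at 29.8, 35.0, 38.3, 32.5 and 37.1 CPM in Ino80cKO. The groups did not overlap, and the rise was 1.38-fold (log2 0.47 ± 0.08, adjusted p = 0.000829). Mest, an alpha/beta hydrolase of mesoderm and fat, rose 1.36-fold from 4.76 ± 0.61 to 6.48 ± 1.01 CPM (adjusted p = 0.0228), a call lost without Ino80WT 5 or Ino80cKO 1 (up to 0.079). Its convergent neighbour Copg2, no member, fell 1.29-fold from 152 ± 14.4 to 118 ± 8.48 CPM (adjusted p = 0.00328), and 23.1% of the exonic bases of Mest are antisense to Copg2. Under library totals Copg2 did not pass (adjusted p = 0.0576).

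Zdbf2, a zinc-finger gene of growth control, was at 110 ± 26.2 and 123 ± 16.8 CPM (95% interval of the fold 0.872 to 1.43). Inpp5f, a phosphoinositide phosphatase, was at 48.4 ± 5.80 and 55.3 ± 8.48 CPM and passed only under library totals. Nnat, a proteolipid of the brain, had 29 to 51 counts, Nap1l5, a nucleosome assembly relative, 12 to 29 and Rasgrf1, a Ras exchange factor, 10 to 38 counts per library, and none of the 3 passed.

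Imprinted genes outside the member list were called about as often as genes in general. Of 46 found in the files, 29 were tested, 6 were higher, 7 lower and 16 did not pass, beside 45.9% called, 18.3% higher and 27.6% lower, over all tested genes, with a median log2 fold change of 0.02. Dhcr7, the last enzyme of cholesterol synthesis, rose 1.33-fold from 37.2 ± 3.84 CPM, and Peg13, a noncoding RNA within Trappc9, rose 1.43-fold from 6.90 ± 0.81 CPM. Besides Zim3 and Copg2, Sfmbt2, a polycomb-like gene, fell 1.61-fold from 126 ± 32.7 CPM, with Ino80WT 3 the highest. Under library totals 11 were higher and 4 lower, beside 5484 and 2937 of 15265 genes in all. By DESeq2 10 were higher, beside 3600 genes in all. Of factors that set, keep or read imprints 24 were tested, and 5 were higher and 7 lower (9 and 4 under library totals), with a median of -0.07, a share of calls again near the 45.9% of all tested genes. The arginine methyltransferases Prmt7 and Prmt5 fell 1.77-fold and 1.39-fold, from 104 ± 11.5 and 121 ± 11.1 CPM. Zfp42 fell 1.61-fold, and the polycomb subunits Ezh2 and Eed fell 1.28-fold and 1.24-fold. Under library totals Eed did not pass (adjusted p = 0.0852).

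Levels of marker transcripts of other cell types differed between the labels too, and their part in the results was not tested. Of 14 Sertoli markers 6 were higher and none lower, of 8 tested Leydig markers 5 were higher, of 12 peritubular and stromal markers 6, and of 10 leukocyte markers 8. No endothelial marker of 8 passed, and of 15 spermatogonial markers 5 were higher and 1 was lower. Over all tested genes 18.3% were higher and 27.6% lower. Summed Leydig markers were 99.1 to 181 CPM in Ino80WT and 160 to 266 CPM in Ino80cKO, and summed leukocyte markers 21.4 to 40.2 and 63.4 to 107 CPM. Among Leydig markers Insl3 was too low to test, and Hba-a1, Hba-a2 and Hbb-b2 of red blood cells were at 0 in every library.

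Marker sums also differed between libraries of 1 label. Pachytene markers were highest in Ino80WT 3, where the Sertoli, Leydig, peritubular and leukocyte sums were lowest, and lowest in Ino80cKO 3, where Sertoli and Leydig sums were highest. Of the 15 members that rose, 6 were lowest in Ino80WT 3 and 5 in Ino80WT 1, and 8 were highest in Ino80cKO 3. Of the 5 that fell, 3 were highest in Ino80WT 3, and 3 were lowest in Ino80cKO 1 and 2 in Ino80cKO 3. Members grouped by their call tend to have such extremes in 1 label by construction. Of all 35 tested members, 5 were highest in Ino80WT 3, 9 were lowest there and 3 were lowest in Ino80cKO 3. Of all 15265 tested genes, 3897 were highest in Ino80WT 3, 3359 were lowest there and 3317 were lowest in Ino80cKO 3. Without Ino80WT 3 and Ino80cKO 3, a check added after the data were seen, 10 members were higher and 4 lower, and 14 of the 20 calls remained. The member calls lost were Igf2r, Gnas, Plagl1, Mest, Ndn and Slc22a18. Calls over all genes became fewer too, with 1914 higher and 3357 lower, against 2793 and 4220 with all libraries.

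**Figure D4:**
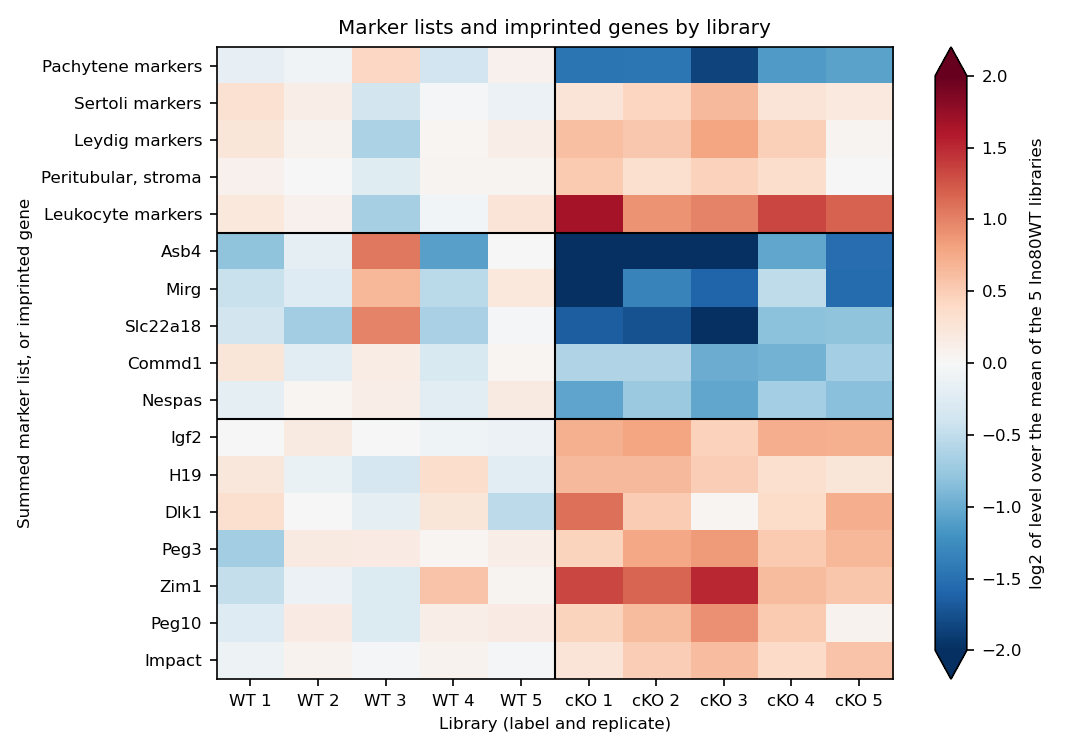
Log2 of the level over the mean of the 5 Ino80WT libraries (colour) for 5 summed marker lists and 12 members (rows) in each library (columns). Pachytene markers and the 5 members that fell are blue across Ino80cKO, somatic and leukocyte lists and the members that rose are mostly red there, and Ino80WT 3 has the lowest somatic sums of all libraries.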

How the data were processed

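PolyA RNA of spermatogenic cells was measured in 10 libraries, 5 per label. The authors deposited unnormalized read counts for each gene. TopHat2, HTSeq, DESeq2 and build mm10 appear without versions in the submitters' processing notes. For the annotation and strand setting: not given in the sources used here. The 5 rows that name no gene held 35.5% to 44.0% of reads and were left out of depths and fits.

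Counts were fitted with edgeR 4.0.16 (R 4.3.3): filterByExpr (minimum count 10, minimum total 15), TMM scaling, and glmQLFit and glmQLFTest with robust dispersions and genotype as the only term. The SE is the log2 fold change divided by the square root of F. The script was tested on simulated data. No pair of libraries differed by sampling noise alone (lowest chi-square per degree of freedom 7.84). Exact two-sided permutation tests over libraries used TMM-scaled CPM, for 15 members. Within-library log2 ratios of counts were taken for 4 neighbour pairs, without a test.

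Exon lengths and overlaps came from GENCODE M21 (GRCm38), positions and promoters from RefSeq GRCm38.p6, the build of mm10; all 38 members matched, Nespas by an older symbol. The annotation used for counting may differ. Members, lists and tests were chosen with earlier results of these data known. All members are named; values in every library are given for the 12 called members with the smallest adjusted p and the 4 with the highest CPM (15 in all, Peg10 counting under both), and for Meg3 beside Mirg. Of the other imprinted genes and of the imprint factors, the 5 called genes with the smallest adjusted p are named; Trappc9 is named for position only. Per-library values of Igf2r, Zrsr1, Dlk1 and Mkrn3 are given in part. Alternatives were DESeq2 1.42.0, its size factors, library totals, 2 other filters, a replicate block and left-out libraries.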

Additional observations from a re-analysis of the deposited data

Results flagged for a closer look

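In 6 of the 70 groups of 5 libraries (35 tested members in each label), 1 library stood far from the other 4, its gap to the nearest being more than 0.71 of the group's range. Chance gives this in about 1 in 20 groups. Peg3 in Ino80WT 1 was at 48.1 CPM, with the next library at 79.9 CPM. Slc22a18 in Ino80WT 3 was at 2.93 CPM, with the next at 1.43 CPM. In Ino80cKO, Igf2 in replicate 3 was at 37.0 CPM below the next at 43.7 CPM, Zrsr1 in replicate 3 was at 39.0 CPM above 32.4 CPM, Igf2r in replicate 4 was at 173 CPM above 155 CPM, and Rian in replicate 1 was at 11.4 CPM above 8.65 CPM.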

How the results depend on the processing

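Over 18 alternative settings no called member changed direction, and in the settings that tested them Igf2, H19, Peg3, Zim1, Peg10, Grb10, Impact, Mkrn3, Asb4, Mirg, Commd1 and Nespas kept their calls. Called members numbered 15 higher and 5 lower in the reported fit, and 10 (without Ino80WT 5) to 16 higher and 5 to 6 lower with 1 library left out. Over all genes, 2135 to 3284 were higher and 3610 to 4275 lower with 1 library left out. Library totals gave 5484 higher and 2937 lower genes in all, against 2793 and 4220. There the members' median was 0.42 (0.14 maternal, 0.48 paternal). Other imprinted genes numbered 11 higher and 4 lower there, and imprint factors 9 higher and 4 lower. The filter of 50 counts in 5 libraries tested 26 members, 3 of them lower, with medians of 0.36 (0.23 maternal, 0.47 paternal). Without the 2 Ino80WT libraries richest in Rn45s these were 0.34, 0.11 and 0.43. The maternal median ran from -0.11 (without Ino80cKO 5) to 0.14 (without Ino80WT 1) with 1 library left out. It was 0.067 without Ino80WT 3 and Ino80cKO 3, where 4 other imprinted genes were lower. There 8 of the 15 members passed the exact test at 0.05, against 13 with all libraries. Most of these 15 were picked by their adjusted p in the same libraries, and 4 against 4 libraries give less power by construction. DESeq2 gave 10 higher other imprinted genes and 3600 higher genes in all, against 2793 in the reported fit. The cause of the other shifts was not tested. With the replicate block 13 members were higher and 5 lower, and 5493 genes were called in all; of the 20 called members, Gnas and Zrsr1 did not pass there. Same-numbered libraries did not deviate together (correlations -0.47 to 0.20, with 1 of 5 closest to its own number). The labels do not say whether the numbers pair the libraries, and a check over 5 numbers cannot settle it. Depth limits the tested members with fewer than 30 counts in at least 1 library, which were Zim1, Slc22a18, Mirg, Airn, Phlda2, Nap1l5, Rasgrf1, Peg12 and Nnat.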
